A study of Mus musculus with 7 samples.

Results

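The proteasome genes of this study were the 40 entries of the deposited gene table whose symbols begin with Psma, Psmb, Psmc or Psmd followed by a digit, out of 55367 genes, with pseudogene and opposite-strand entries left out. Of these, 19 begin with Psma or Psmb and are called core here, and 21 begin with Psmc or Psmd and are called regulatory. Gene expression was measured by bulk RNA-seq in brain tissue of C57BL/6J mice (age label P90), in cells labelled mPFC-LHB projection neurons, that is, neurons of the medial prefrontal cortex that send axons to the lateral habenula. The groups were labelled noCRS (n = 3 libraries, the controls) and CRS (n = 4 libraries), and the series title sets the contrast between them in the context of chronic stress. No other allele, agent or treatment is named in the labels, and the sources used here do not give how the neurons were marked or collected. Nothing in the labels ties a library to an animal of its own. The p-values therefore describe spread between libraries, which may be technical. Values per library are given in replicate order throughout.

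The proteasome is the large protease that degrades proteins tagged with ubiquitin. Its core particle is a barrel of stacked rings: the outer rings are built of alpha subunits (Psma genes), which gate the entrance, and the inner rings of beta subunits (Psmb genes), of which Psmb5, Psmb6 and Psmb7 carry the proteolytic sites. The regulatory particle caps the barrel. Its base holds a ring of ATPases (Psmc genes) that unfold substrates and pull them in, together with scaffold proteins and a ubiquitin receptor, and its lid removes ubiquitin before degradation. In neurons the proteasome takes part in protein turnover at synapses, and its subunit genes are known to be induced together by the transcription factor encoded by Nfe2l1 when proteasome activity is limiting.

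The role given by a symbol did not hold for every entry. Psmc3ip, which the rule takes, encodes a meiotic recombination protein and is no proteasome subunit, and Psmd5, Psmd9 and Psmd10 encode chaperones that assemble the base and are absent from the finished particle. Adrm1 and Sem1 encode subunits of the base and the lid that the rule does not take. The base and lid counts below therefore leave them out. Psma8 is known as a testis form of an alpha subunit, Psmb11 as a form of thymic epithelium, and Psmb8, Psmb9 and Psmb10 as interferon-inducible replacements of Psmb5, Psmb6 and Psmb7. Psma8 had 0 counts in every library, where 3 counts would correspond to 0.0724 to 0.0990 CPM (the depth-scaled count used throughout, here with edgeR's TMM scaling factors). Psmb11 had 161 counts in noCRS replicate 3 and 0 in the other libraries. Neither passed the filter on low counts, and the remaining 38 genes entered the test. All 40 had the same span in the deposited table as in GENCODE M21 on GRCm38, and 5 shared over 10% of their exon length with another gene: Psmb5 (12.1%), Psmb7 (11.8%), Psmb8 (14.7%), Psmd13 (10.1%) and Psmc3ip (21.2%). Reads of such stretches cannot be assigned with certainty. For Psmb5 the other gene, Mir686, lies on the same strand, and for the other 4 it lies on the opposite strand, which the library kit does not mark. The 5 pseudogene entries that the rule leaves out held 29 to 149 counts per library in all, against 197316 to 328024 for the 40 genes.

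Promoter sequence is given first. The factor encoded by Nfe2l1 is known to bind the antioxidant response element, whose core is written TGACNNNGC. RefSeq promoter windows on GRCm38.p6 (250 bases before to 50 after the start site) were found for 33 of the 40 genes, with 35 windows. On either strand the letters TGACNNNGC were in 5 of these windows (14.3%), against 12.4% of all 32841 windows of that length. CCAAT was in 14 (40.0%) against 37.4%, and TATAAA in 4 (11.4%) against 13.6%. None of the windows with TGACNNNGC held CCAAT or TATAAA, so these matches did not overlap. All 3 shares were near those of all windows. A match is a description of letters, not a binding site, and a window without one says only that the letters are not in it. The 5 stretches that hold TGACNNNGC upstream of the start site are printed so that they can be set beside the expression values of their genes. Each is the gene's own strand, 5′ to 3′, with the motif in capitals, up to 25 bases to each side, trimmed at the start site, at annotated exons and at the upstream edge of the window, where the stretches of Psmc6 and Psmd12 begin. In Psmc6 and Psmd12 the capitals are the motif of the other strand, read in reverse complement.
Psmb5 (chr14:54618023-54618067, - strand): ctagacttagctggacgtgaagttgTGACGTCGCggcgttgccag
Psmb6 (chr11:70525323-70525356, + strand): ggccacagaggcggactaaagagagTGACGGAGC
Psmc6 (chr14:45329574-45329630, + strand): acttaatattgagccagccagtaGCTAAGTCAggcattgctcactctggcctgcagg
Psmd12 (chr11:107479278-107479314, + strand): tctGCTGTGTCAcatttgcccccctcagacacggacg
Psmd9 (chr5:123228134-123228189, + strand): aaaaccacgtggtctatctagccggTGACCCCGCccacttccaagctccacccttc
These 5 genes covered a catalytic pair of the core (Psmb5, Psmb6), an ATPase (Psmc6), a lid subunit (Psmd12) and a base chaperone (Psmd9). Their log2 fold changes between the groups ran from -0.16 (Psmd9) to 0.73 (Psmd12).

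The libraries held 28677703 to 39965667 counts each. The marker levels did not match the label of projection neurons equally in both groups: neuron markers were low in noCRS, and glial markers were abundant in every library. The summed level of 12 neuron markers was 168 to 293 CPM in noCRS and 2949 to 4408 CPM in CRS. Of these, 5 of 12 passed the edgeR threshold as higher (2.07% of all tested genes), and none was at 0 counts throughout a group. The list joins markers of excitatory neurons with Snap25, Syt1, Rbfox3, Tubb3 and Stmn2, which mark neurons of any type. Snap25 alone had 102 to 217 CPM in noCRS and 2090 to 3503 CPM in CRS. Inhibitory markers (8 genes) summed to 62.9 to 65.6 and 208 to 893 CPM, and 2 of 6 tested passed as higher (2.07% of all tested genes). Among them, Slc32a1 and Lhx6 had 0 counts in every noCRS library. Slc32a1 and Lhx6 were near the floor in most CRS libraries too. Slc32a1 had 0, 0, 4 and 4 counts there, and Lhx6 had 462 in CRS replicate 2 and 0 in the other CRS libraries. Oligodendrocyte precursor markers (7 genes) summed to 2074 to 2479 and 1213 to 1679 CPM, with 3 of 7 passing as lower (0.23% of all tested genes). Oligodendrocyte markers (8 genes, 32945 to 38345 and 27188 to 53826 CPM) and astrocyte markers (8 genes, 10772 to 14032 and 6342 to 12937 CPM) were abundant in both groups and overlapped. Each of these lists had 0 of 8 members past the threshold (2.3% of all tested genes in either direction). Microglial markers (8 genes, 89.4 to 133 and 84.4 to 124 CPM) and endothelial and mural markers (8 genes, 89.5 to 252 and 164 to 642 CPM) overlapped as well, with 0 past the threshold. The microglial Tmem119 had 0 counts in every noCRS library and 163, 1, 64 and 11 counts in the CRS libraries. The part of these differences in the proteasome values was not tested. In bulk samples, a change in the share of cells of a type and a change of RNA per cell cannot be told apart.

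Most subunit genes were somewhat higher in the CRS libraries, and edgeR passed none of them singly. Of 38 tested genes, 33 had a fitted fold change above 0, as did 49.2% of all 17833 tested genes, and the median was 1.29-fold (log2 0.36), against a median log2 fold change of -0.016 over all tested genes. In 19 of the 38 every CRS library lay above every noCRS library (10.1% of all tested genes), and in 0 every CRS library lay below (6.74%). With edgeR's quasi-likelihood test, adjusted over all tested genes after Benjamini and Hochberg, 0 of 38 passed an adjusted p of 0.05 (2.3% of all tested genes). At an unadjusted p below 0.05, 16 were higher (9.67%) and 0 lower (3.91%). DESeq2, whose count over all genes was larger, called 8 (9.14% of genes with an adjusted p). Run with quality weights for the libraries, limma-voom called 2 (3.58%). Restricted to higher genes these backgrounds were 6.84% and 2.93%. The 8 called by DESeq2 were Psma1, Psma5, Psmb10, Psmc6, Psmd1, Psmd2, Psmd6 and Psmd12, all higher, and limma-voom called Psma5 and Psmd2. These genes have related functions and come from the same 7 libraries, so their counts are not independent observations.

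Summed over genes, core and regulatory transcripts differed between the groups by a similar factor. The 19 core genes summed to 2767, 2627 and 2722 CPM in noCRS replicates 1 to 3 and to 3416, 4269.9, 3137 and 3216 CPM in CRS replicates 1 to 4. For the 21 regulatory genes the sums were 3882, 3708 and 3662 CPM and 4624, 5965, 4729.6 and 4579 CPM in the same order. In both sums the lowest CRS library stood above the highest noCRS library, and CRS replicate 2 stood above the other CRS libraries. The ratio of group means was 1.30 for the core and 1.33 for the regulatory genes, or 1.2 and 1.24 without CRS replicate 2. Divided by each other, the core sum and the regulatory sum gave 0.722 ± 0.0191 (SD, n = 3) in noCRS and 0.705 ± 0.0316 (SD, n = 4) in CRS, and the ranges overlapped (0.708 to 0.744 and 0.663 to 0.739). Without any scaling factor, the 40 genes took 0.690%, 0.688% and 0.680% of all counts in noCRS and 0.792%, 0.946%, 0.737% and 0.753% in CRS. These shares did not overlap either.

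**Figure D1:**
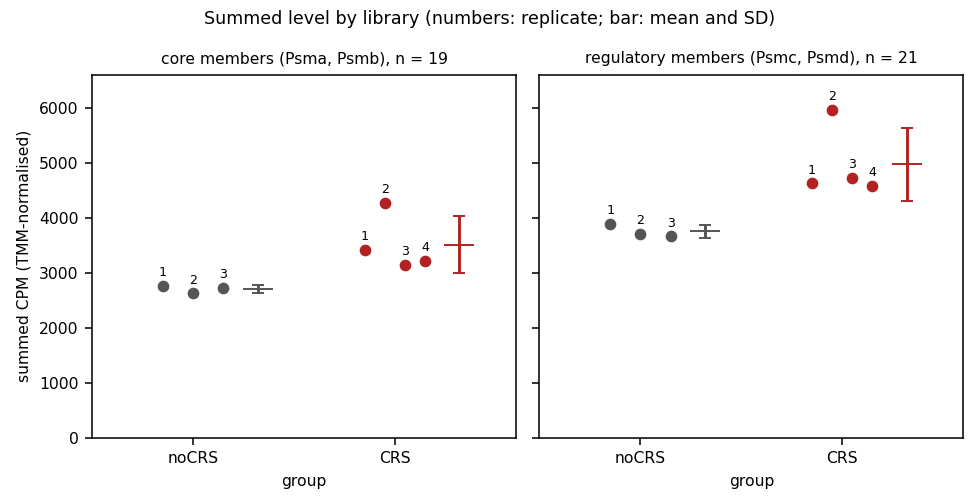
Summed CPM (vertical axis, from 0) of the core and the regulatory genes in each library, with the replicate number above each point and the mean and SD at the side. All CRS points lie above all noCRS points in both panels, and CRS replicate 2 is the highest at 4269.9 and 5965 CPM.

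Gene by gene, the medians of the core and the regulatory genes were also close. Of 17 tested core genes 15 had a fold change above 0, 8 had CRS libraries all above the noCRS libraries, and the median log2 fold change was 0.38. For the 21 regulatory genes these were 18, 11 and 0.36 (0.36 without Psmc3ip). Of all tested genes, 49.2% were above 0, and 10.1% had every CRS library above every noCRS library. These shares also stand beside the counts by role below. With the inducible forms left out, 14 of 14 core genes were above 0, and with the chaperones and Psmc3ip left out, 16 of 17 regulatory genes were, the exception being Psmd3. The difference between the core and the regulatory medians was not tested. Under total-count scaling the all-gene median of log2 fold changes went from -0.016 to -0.17 and that of the proteasome genes from 0.36 to 0.20, so that the distance between the medians was 0.38 and 0.37.

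**Figure D2:**
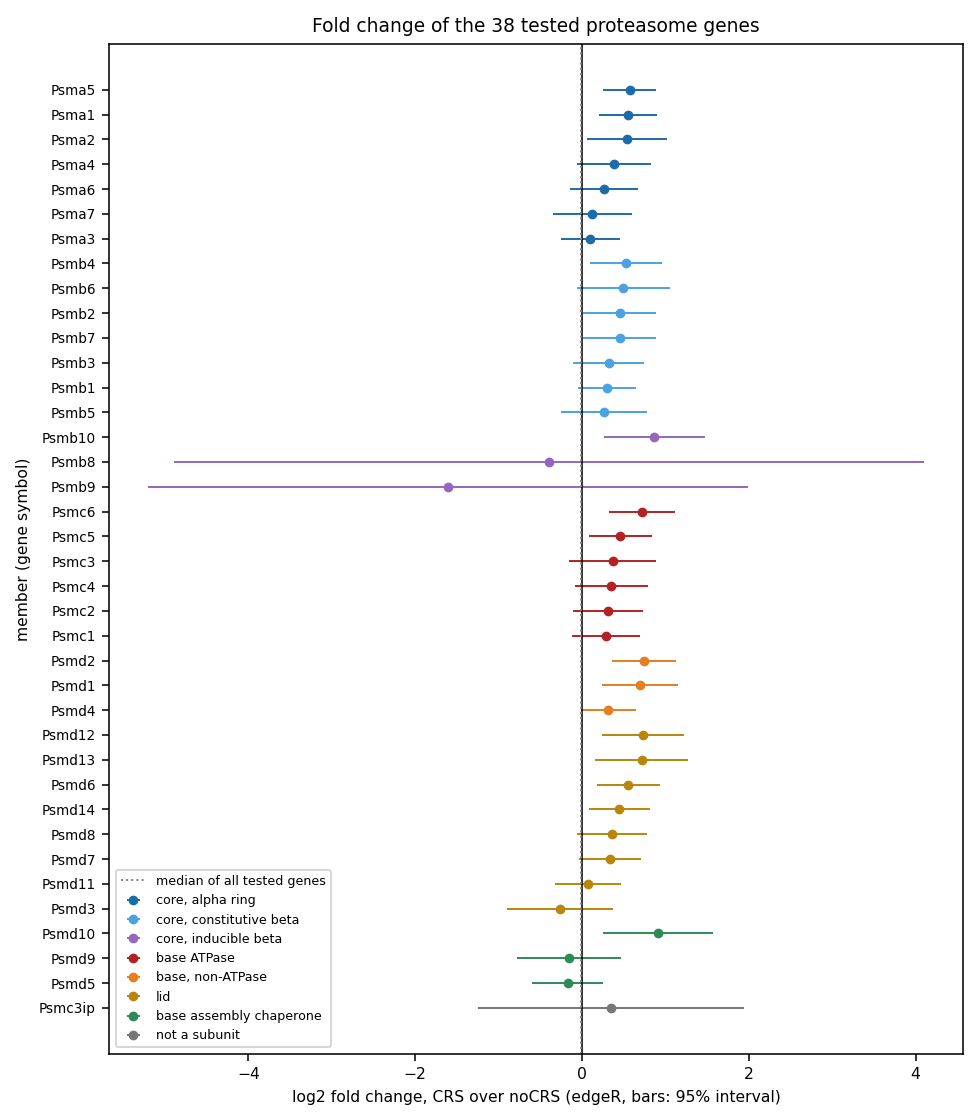
Fold change of each tested gene between CRS and noCRS (horizontal axis, log2, edgeR) with its 95% interval, grouped and coloured by role; the dotted line is the median of all tested genes. Points lie right of 0 for 33 of 38 genes, from -1.60 (Psmb9) to 0.91 (Psmd10), and the intervals of Psmb8, Psmb9 and Psmc3ip are the widest.

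Alpha ring genes, whose products form the gated outer rings, all had values above 0 where tested (7 of 7, median log2 fold change 0.38). Psma5 (chromosome 3, 108256926 to 108279974) had the smallest p of the ring, with 162, 147 and 138 CPM in the noCRS libraries and 209, 227, 236 and 213 CPM in the CRS libraries. The groups did not overlap and each was narrow, and the difference was 1.49-fold (log2 0.57 ± 0.14 SE, adjusted p = 0.0874 in edgeR). Psma1 likewise separated the groups, with 116, 109.6 and 124 CPM in the noCRS libraries and 191, 152, 164 and 176 CPM in the CRS libraries (edgeR adjusted p = 0.132). Psma2 also had no overlap, at 207, 168 and 178 CPM in the noCRS libraries and 239, 369, 232 and 233 CPM in the CRS libraries, and CRS replicate 2 stood well above the other CRS libraries. At the other end stood Psma7, with 255, 235 and 283 CPM in the noCRS libraries and 220.0, 379, 248 and 276 CPM in the CRS libraries. Its groups overlapped (log2 0.12 ± 0.21 SE, adjusted p = 0.897 in edgeR), the 95% interval of its log2 fold change was -0.35 to 0.59, and the value was -0.072 without CRS replicate 2. Psma3 (284 ± 30.5 CPM for noCRS against 305 ± 34.2 for CRS), Psma4 (117 ± 18.8 CPM for noCRS against 152 ± 23.3 for CRS) and Psma6 (139.6 ± 26.6 CPM for noCRS against 168 ± 17.0 for CRS; SD, n = 3 and 4) overlapped between the groups too. Thus 3 of 7 tested alpha genes separated the groups with CRS higher (10.1% of all tested genes) and 4 did not.

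The constitutive beta subunits of the inner rings were likewise all above 0 (7 of 7, median log2 fold change 0.45), with no overlap in Psmb1, Psmb2, Psmb4 and Psmb7. Psmb4, a structural beta subunit, had 111, 153 and 135 CPM in the noCRS libraries and 207, 223, 159 and 177 CPM in the CRS libraries (log2 0.53 ± 0.19 SE, adjusted p = 0.227 in edgeR). Psmb2, also non-catalytic, had 301, 293 and 317 CPM in the noCRS libraries and 395, 554, 371 and 341 CPM in the CRS libraries; the noCRS values lay close together and CRS replicate 2 was well above the other CRS libraries. The remaining structural genes were Psmb1 (294 ± 25.8 CPM for noCRS against 362 ± 41.9 for CRS; SD, n = 3 and 4), which separated the groups, and Psmb3 (189.8 ± 22.5 CPM for noCRS against 237 ± 42.8 for CRS), which did not. Among the catalytic subunits, Psmb5 (chromosome 14, 54614119 to 54618022), which carries the chymotrypsin-like site, measured 99.5, 79.1 and 73.6 CPM in the noCRS libraries and 112, 126, 83.5 and 80.9 CPM in the CRS libraries. CRS replicates 3 and 4 lay within the noCRS range (log2 0.26 ± 0.23 SE, adjusted p = 0.763 in edgeR; 95% interval -0.26 to 0.78). Psmb6, the caspase-like subunit, measured 424, 315 and 354 CPM in the noCRS libraries and 496, 745, 384 and 432 CPM in the CRS libraries, with CRS replicate 3 inside the noCRS range (log2 0.50 ± 0.25 SE, adjusted p = 0.445 in edgeR). For Psmb7, the trypsin-like subunit, the values were 48.2, 51.2 and 44.1 CPM in the noCRS libraries and 73.1, 60.4, 68.2 and 59.7 CPM in the CRS libraries, a small but complete separation (log2 0.45 ± 0.19 SE, adjusted p = 0.355 in edgeR). Psmb6 was the most variable of the catalytic genes in CRS, with a coefficient of variation of 31.3% against 22.1% for Psmb5 and 9.87% for Psmb7.

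The inducible beta subunits, which replace the catalytic ones under interferon signalling and in immune cells, were 3 tested genes of which none passed in edgeR (DESeq2 called Psmb10). Psmb10 measured 31.2, 30.3 and 25.4 CPM in the noCRS libraries and 57.6, 63.6, 37.2 and 52.4 CPM in the CRS libraries. Every CRS library was above the noCRS libraries, by 1.82-fold on average (log2 0.86 ± 0.26 SE, adjusted p = 0.171 in edgeR). Psmb8 and Psmb9, neighbours on chromosome 17, varied widely between libraries. Their values were 2.29, 3.66 and 7.76 CPM in the noCRS libraries and 9.78, 0, 0 and 4.14 CPM in the CRS libraries for Psmb8 and 2.80, 3.34 and 6.72 CPM in the noCRS libraries and 3.83, 0, 0.330 and 1.46 CPM in the CRS libraries for Psmb9. By count, Psmb8 had 324 in CRS replicate 1 and 0 in CRS replicates 2 and 3, and Psmb9 had 127 in CRS replicate 1 and 0 in CRS replicate 2, and the 95% intervals of the log2 fold changes spanned -4.89 to 4.10 and -5.20 to 1.99. The Psmb8 value (-0.39) changed sign to 0.23 without noCRS replicate 3, and to 0.0074 and 0.0043 without CRS replicate 2 or 3. No direction could be read for this pair.

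Among the ATPases of the base, which unfold the substrate, 6 of 6 had values above 0 and the median was log2 0.36. Psmc6 (chromosome 14, 45329788 to 45349705) was the one of smallest p, at 103, 96.2 and 81.8 CPM in the noCRS libraries and 159.7, 171, 129.9 and 154 CPM in the CRS libraries. No CRS library reached down to the noCRS range, and the difference was 1.65-fold (log2 0.72 ± 0.17 SE, adjusted p = 0.0808 in edgeR). Psmc5 also separated the groups, with 259, 264 and 206 CPM in the noCRS libraries and 303, 391, 346 and 298 CPM in the CRS libraries (edgeR adjusted p = 0.237). Psmc3 had the largest p of the ring, with 347, 296 and 331 CPM in the noCRS libraries and 304, 596, 404 and 371 CPM in the CRS libraries. CRS replicate 1 lay within its noCRS range and replicate 2 far above the others (log2 0.37 ± 0.23 SE, adjusted p = 0.604 in edgeR; log2 fold change 0.13 without CRS replicate 2). Psmc1, Psmc2 and Psmc4 had log2 fold changes of 0.29, 0.31 and 0.35, and all overlapped. Products of these genes sit side by side in 1 ring, and their fold changes ran from 1.22 (Psmc1) to 1.65 (Psmc6). The 95% intervals of these log2 fold changes overlapped (-0.12 to 0.70 and 0.32 to 1.11), and differences between the genes were not tested.

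Non-ATPase subunits of the base stood highest among the role groups by median (0.69, 3 genes), and all 3 separated the groups with CRS higher (10.1% of all tested genes). Psmd2 (chromosome 16, 20651652 to 20663414), a scaffold that docks ubiquitin-binding and deubiquitinating proteins, had the smallest p of all 38 genes. It measured 389, 319.5 and 315 CPM in the noCRS libraries and 611, 666, 492 and 512 CPM in the CRS libraries. The lowest CRS library exceeded the highest noCRS library, and the difference was 1.67-fold (log2 0.74 ± 0.17 SE, adjusted p = 0.0657 in edgeR; adjusted p = 0.00298 by DESeq2 and 0.0308 by limma-voom). Psmd1, the other large scaffold, had 149.6, 175 and 183 CPM in the noCRS libraries and 290.3, 351, 232 and 223 CPM in the CRS libraries (log2 0.69 ± 0.20 SE, adjusted p = 0.143 in edgeR). Psmd4, a ubiquitin receptor, had 193, 199 and 227 CPM in the noCRS libraries and 229.8, 278, 268 and 251 CPM in the CRS libraries, a narrow separation that the test did not pass (log2 0.32 ± 0.14 SE, adjusted p = 0.394 in edgeR). Thus the scaffolds were near 1.62- and 1.67-fold and the receptor at 1.24-fold, and the difference between them was not tested.

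Lid subunits were above 0 in 7 of 8 cases (median log2 fold change 0.40), and 5 separated the groups with CRS higher (10.1% of all tested genes): Psmd6, Psmd8, Psmd12, Psmd13 and Psmd14. Psmd12 had 174, 164 and 117 CPM in the noCRS libraries and 218, 329.9, 231 and 229.6 CPM in the CRS libraries, and noCRS replicate 3 and CRS replicate 2 set the ends of its range (log2 0.73 ± 0.22 SE, adjusted p = 0.155 in edgeR). Psmd14, the deubiquitinase of the lid, had 163, 155 and 170.0 CPM in the noCRS libraries and 199.9, 268, 209 and 209 CPM in the CRS libraries, tight in noCRS and highest in CRS replicate 2 (log2 0.45 ± 0.16 SE, adjusted p = 0.228 in edgeR). Psmd6 had 149, 176 and 168 CPM in the noCRS libraries and 230.3, 295, 229 and 212 CPM in the CRS libraries (log2 0.56 ± 0.17 SE, adjusted p = 0.163 in edgeR). Psmd8 (115 ± 12.7 CPM for noCRS against 148 ± 23.0 for CRS) and Psmd13 (102 ± 25.2 CPM for noCRS against 168 ± 35.7 for CRS; SD, n = 3 and 4) had log2 fold changes of 0.36 and 0.72, and Psmd7, whose groups overlapped, of 0.33 (176 ± 16.8 CPM for noCRS against 221 ± 29.9 for CRS). By contrast Psmd11, a lid scaffold, had 374, 308 and 239 CPM in the noCRS libraries and 307, 337, 323 and 325 CPM in the CRS libraries. Its CRS values lay inside the noCRS range (log2 0.074 ± 0.17 SE, adjusted p = 0.925 in edgeR; 95% interval -0.32 to 0.47), and the sign turned without noCRS replicate 3 (-0.074). Psmd3 was the lid gene with a value below 0, at 39.2, 62.6 and 53.0 CPM in the noCRS libraries and 54.6, 35.2, 33.7 and 48.2 CPM in the CRS libraries (log2 -0.26 ± 0.28 SE, adjusted p = 0.823 in edgeR), with overlapping groups.

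The base chaperones, which leave the particle once it is assembled, gave 0 of 3 past the edgeR threshold. With CRS higher, 1 of 3 separated the groups (10.1% of all tested genes). Psmd10, also known as gankyrin, had 54.3, 29.8 and 37.7 CPM in the noCRS libraries and 63.3, 100.2, 81.7 and 60.7 CPM in the CRS libraries. The CRS libraries were all above the noCRS libraries (1.88-fold, log2 0.91 ± 0.29 SE, adjusted p = 0.186 in edgeR), although the lowest CRS and the highest noCRS values were close. Psmd5 had 195, 197 and 259 CPM in the noCRS libraries and 156, 231, 185 and 199 CPM in the CRS libraries and Psmd9 had 89.2, 60.8 and 48.3 CPM in the noCRS libraries and 57.1, 77.1, 53.4 and 49.0 CPM in the CRS libraries. Both overlapped, with log2 fold changes of -0.17 (95% interval -0.60 to 0.25) and -0.16 (-0.78 to 0.46), and the sign of Psmd9 turned without noCRS replicate 1 (0.13). Psmc3ip, the recombination protein, had 16.5, 12.7 and 2.0 CPM in the noCRS libraries and 11.6, 17.1, 13.5 and 10.7 CPM in the CRS libraries; noCRS replicate 3 was far below the rest, and the log2 fold change of 0.35 became -0.14 without it.

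Across single libraries, the difference was carried by all 4 CRS libraries and was largest in replicate 2. Relative to the noCRS mean on the log2 CPM scale, the median over the 38 genes was 0.38, 0.62, 0.35 and 0.30 in CRS replicates 1 to 4. In the same libraries 33, 35, 31 and 33 of the 38 genes stood above their noCRS mean. The counts were 23, 17 and 19 in noCRS replicates 1 to 3. That mean is taken from these same 3 libraries, so their counts are centred by construction and are no control. The share of all tested genes above their noCRS mean was not computed by library. Over all tested genes the library medians were -0.097 to 0.17 in CRS. CRS replicate 2 was the library with the lowest of those medians and the highest proteasome median. It had the fewest detected genes (16938, against up to 23399 in the others) and the highest summed level of the 12 neuron markers (4408 CPM). That sum was 4220 CPM in CRS replicate 4, which had the lowest proteasome median of the CRS libraries. The inhibitory markers summed to 893 CPM in CRS replicate 2, against 208, 261 and 325 CPM in CRS replicates 1, 3 and 4. The part of these traits in the proteasome values of CRS replicate 2 was not tested. Without it, the median log2 fold change was 0.26 for core and 0.26 for regulatory genes, 33 of 38 were still above 0, and 11 were higher at an unadjusted p below 0.05 (8.93% of all tested genes), against 16 with it. Without overlap were 19, as many as with it, but the share over all genes was 13.6% rather than 10.1%, since separation is easier with fewer libraries.

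**Figure D3:**
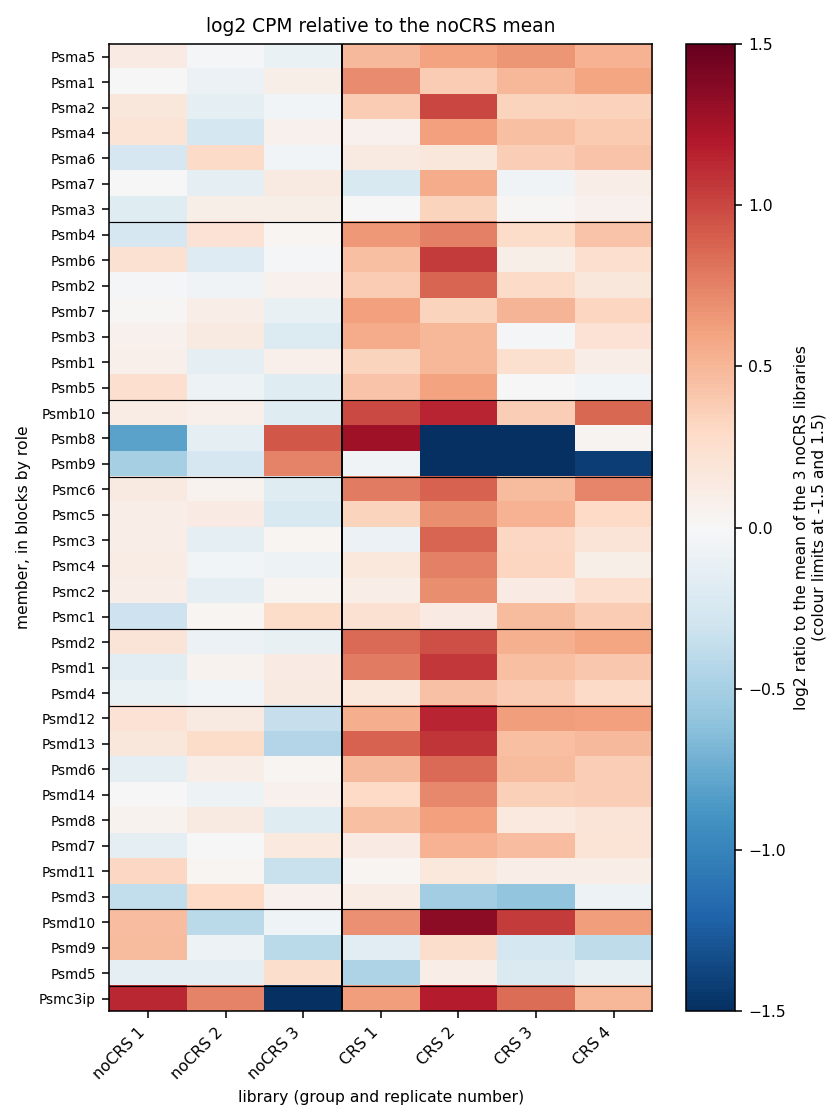
Heat map of log2 CPM of each tested gene (rows, in blocks by role) in each library (columns), relative to its mean over the 3 noCRS libraries; red is higher, blue lower, with colours limited at -1.5 and 1.5. Most rows turn red in the 4 CRS columns, strongest in replicate 2, while Psmb9, Psmd3, Psmd5 and Psmd9 lie below their noCRS mean in at least 3 of those 4 columns.

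Levels were compared between genes per kilobase of exon, since the subunits form 1 complex but their transcripts differ in length. In noCRS the level per kilobase was highest for Psmb2 (252 ± 10.1 CPM per kb, SD, n = 3), Psmb6 (195 ± 29.5) and Psmc5 (174 ± 23.2), of which Psmb6 and Psmc5 did not differ beyond their spread. Further down came Psma6 (113 ± 21.5) and Psma5 (113 ± 9.0), then Psmb5 (93.5 ± 15.2) and Psmd2 (84.5 ± 10.3), and neither of these pairs differed beyond its spread. At the low end of the constitutive subunits were Psmd1 (23.3 ± 2.42), Psmb7 (14 ± 1.05) and Psmd3 (10.4 ± 2.36), and the inducible Psmb8 (1.35 ± 0.842) and Psmb9 (1.17 ± 0.580) lay below all tested subunits. In CRS, Psmb2 (345 ± 79.1 CPM per kb, SD, n = 4), Psmb6 (275 ± 86.0) and Psmc5 (239.8 ± 31.0) again led. The exon length is that of all annotated exons joined, so genes with long or rarely used exons are placed too low by this measure. The proteasome genes varied little between libraries of a group: the median coefficient of variation was 11.6% in noCRS and 17.1% in CRS, against 39.6% and 45.7% over all tested genes, whose median level was lower (13.6 against 202 CPM).

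**Figure D4:**
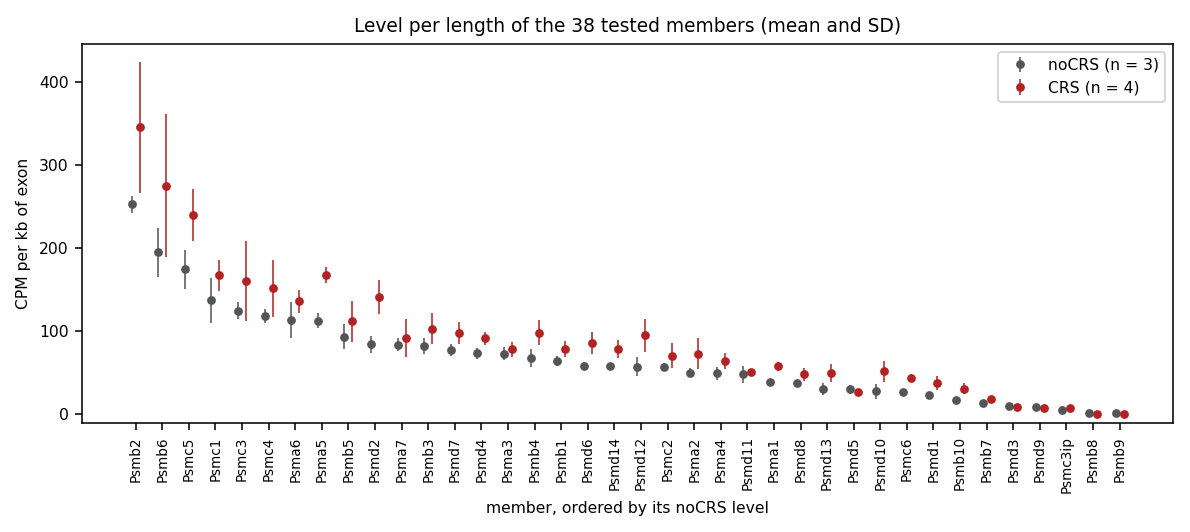
Level per kilobase of exon (vertical axis, CPM per kb) of the tested genes, ordered by the noCRS mean, with mean and SD for noCRS (grey, n = 3) and CRS (red, n = 4). The levels run from 1.17 (Psmb9) to 252 (Psmb2) in noCRS, and the red points lie above the grey ones for most genes.

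Other genes of the ubiquitin-proteasome pathway were more mixed. Of 74 tested genes in 9 lists, 48 had fold changes above 0 (49.2% of all tested genes; median log2 0.14), 5 rose by edgeR (2.07% of all tested genes) and 0 fell (0.23%), and without adjustment 15 were higher (9.67%) and 5 lower (3.91%) at a p below 0.05. DESeq2 called 12 (9.14%) and limma-voom 6 (3.58%) of them in either direction. These shares also stand beside the counts by list below. The genes that rose were Usp14, Ube2b, Ube2d3, Uchl1 and Otub1.

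Of proteins listed as binding the proteasome, 1 of 9 rose by edgeR (2.07% of all tested genes) and 0 fell. DESeq2 called 3 (9.14% of genes with an adjusted p) and limma-voom 1 (3.58%). Those of DESeq2 were Usp14, Uchl5 (DESeq2 adjusted p = 0.00407) and Zfand5 (DESeq2 adjusted p = 0.000927). The list holds Adrm1 and Sem1, the subunits that the symbol rule does not take. Their log2 fold changes were 0.30 and -0.14 (adjusted p = 0.486 and 0.910 in edgeR). Usp14, a deubiquitinase that docks on the base, had 126, 155 and 145 CPM in the noCRS libraries and 303, 233, 266 and 286 CPM in the CRS libraries. All CRS libraries were above the noCRS libraries (1.92-fold, log2 0.94 ± 0.16 SE, adjusted p = 0.0247 in edgeR), but the call was kept in only 1 of 7 fits that left out a library, that without CRS replicate 2 (adjusted p up to 0.0999 in edgeR). It was also lost with total-count scaling (edgeR adjusted p = 0.0695), and Usp14 shares 26.0% of its exon length with Thoc1. Uchl5, the other deubiquitinase of the base, had 65.3, 56.3 and 51.3 CPM in the noCRS libraries and 91.3, 83.9, 84.8 and 88.1 CPM in the CRS libraries (edgeR adjusted p = 0.157), and Zfand5, a proteasome-binding zinc finger protein, 143, 189 and 138 CPM in the noCRS libraries and 229, 263, 252 and 251 CPM in the CRS libraries (adjusted p = 0.0874). Usp14, Uchl5, Zfand5 and Adrm1 were the 4 of 9 in this list that separated the groups with CRS higher (10.1% of all tested genes). Among the activators and the inhibitor of the core, 0 of 5 passed by edgeR (2.3% of all tested genes), 1 by DESeq2 (9.14%) and 0 by limma-voom (3.58%). Without adjustment, 1 was higher (9.67%) and 1 lower (3.91%) at a p below 0.05 by edgeR. Psme2, a subunit of the interferon-inducible activator, had 90.02, 93.9 and 90.3 CPM in the noCRS libraries and 45.6, 72.5, 58.5 and 66.1 CPM in the CRS libraries, lower in every CRS library (log2 -0.59 ± 0.20 SE, adjusted p = 0.216 in edgeR). Its partner Psme1 had 52.8, 60.2 and 40.0 CPM in the noCRS libraries and 53.1, 49.9, 61.6 and 57.4 CPM in the CRS libraries and overlapped. Psmf1, an inhibitor of the core, had 92.9, 76.9 and 58.2 CPM in the noCRS libraries and 155, 160.1, 83.0 and 102 CPM in the CRS libraries (edgeR adjusted p = 0.313), with CRS replicate 3 inside the noCRS range.

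Core assembly factors gave 0 calls of 5 by edgeR, DESeq2 and limma-voom, and 0 at an unadjusted p below 0.05 (median log2 fold change 0.062). Pomp, which matures the beta rings, had 130.4, 203 and 166 CPM in the noCRS libraries and 176, 265, 235 and 229 CPM in the CRS libraries, with overlapping groups (log2 0.44 ± 0.21 SE, adjusted p = 0.414 in edgeR). Of genes that act on subunit gene transcription, 0 of 4 passed by any of the 3 tools, and 0 had an unadjusted p below 0.05. Nfe2l1 itself had 20.9, 12.9 and 30.6 CPM in the noCRS libraries and 18.5, 16.0, 14.4 and 13.5 CPM in the CRS libraries (edgeR adjusted p = 0.776), with overlapping groups. Ddi2, the protease that activates its product, had 10.5, 9.34 and 4.87 CPM in the noCRS libraries and 14.6, 18.2, 20.9 and 13.8 CPM in the CRS libraries, which separated the groups (log2 1.03 ± 0.49 SE, adjusted p = 0.414 in edgeR) but shares 18.3% of its exon length with Rsc1a1.

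Ubiquitin itself is encoded by polyubiquitin genes and by fusions with ribosomal proteins. Of these 4 genes 0 passed by edgeR, DESeq2 or limma-voom, and 1 had an unadjusted p below 0.05. This was Ubb, a polyubiquitin gene, which had 3759, 3801 and 4008 CPM in the noCRS libraries and 4965, 8259, 5528 and 4882 CPM in the CRS libraries; the groups did not overlap and CRS replicate 2 was highest (log2 0.62 ± 0.21 SE, adjusted p = 0.207 in edgeR). Among ubiquitin-activating and conjugating enzymes 2 of 21 rose by edgeR (2.07% of all tested genes) and 0 fell. DESeq2 called 3 (9.14% of genes with an adjusted p) and limma-voom 3 (3.58%). Ube2b, a conjugating enzyme, had 148, 169 and 165 CPM in the noCRS libraries and 268, 375, 335 and 305 CPM in the CRS libraries (1.99-fold, log2 1.0 ± 0.16 SE, adjusted p = 0.0219 in edgeR). Ube2d3, another, had 292, 328 and 242 CPM in the noCRS libraries and 528, 466, 496 and 476 CPM in the CRS libraries (1.71-fold, log2 0.77 ± 0.15 SE, adjusted p = 0.0412 in edgeR). Both separated the groups, and with CRS higher 4 of the 21 did so (10.1% of all tested genes). The Ube2b call was kept without CRS replicate 1 or 2 and lost without each of the other libraries (adjusted p up to 0.0981), and that of Ube2d3 was lost without any single library (up to 0.166). Upper-quartile scaling, total-count scaling and no filter on low counts also ended the Ube2d3 call (edgeR adjusted p = 0.0576, 0.109 and 0.0665).

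The largest fold change of the 74 tested pathway genes was that of a deubiquitinase. Uchl1, a ubiquitin hydrolase known as an abundant neuronal protein, had 13, 15.4 and 16.5 CPM in the noCRS libraries and 141, 144, 143 and 141 CPM in the CRS libraries. The CRS libraries lay within a few CPM of one another and far above noCRS, a 9.53-fold rise (log2 3.25 ± 0.19 SE, adjusted p = 0.000386 in edgeR), and the call held without each library in turn (adjusted p up to 0.00663); 18.1% of its exon length is shared with Uchl1os on the other strand. Otub1 rose 2.53-fold, with 140.2, 115 and 122 CPM in the noCRS libraries and 365, 397, 211 and 301 CPM in the CRS libraries (log2 1.34 ± 0.23 SE, adjusted p = 0.0278 in edgeR). Its call was kept without CRS replicate 2 or 3 and lost without each of the other libraries (adjusted p up to 0.135). DESeq2 called 2 of 7 deubiquitinases (9.14% of genes with an adjusted p) and limma-voom 2 (3.58%). By edgeR 2 of 7 rose (2.07% of all tested genes) and 0 fell. These changes stood beside the neuron marker differences given above, and their relation was not tested.

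Shuttle factors and the segregase that deliver substrates gave 0 calls of 10 by edgeR (2.3% of all tested genes). DESeq2 called 2 (9.14% of genes with an adjusted p) and limma-voom 0 (3.58%). Without adjustment 2 were higher (9.67%) and 2 lower (3.91%) at a p below 0.05 by edgeR. Vcp, the segregase ATPase, had 331, 334 and 328 CPM in the noCRS libraries and 421, 434, 567 and 392 CPM in the CRS libraries, and its cofactor Ufd1 had 184, 184 and 158 CPM in the noCRS libraries and 238, 249.6, 247 and 214 CPM in the CRS libraries. Both separated the groups without passing by edgeR (edgeR adjusted p = 0.233 and 0.199). Of the 10 genes, 2 separated the groups with CRS higher (10.1% of all tested genes) and 2 with CRS lower (6.74%). Faf1, a Vcp-binding adaptor, was lower in every CRS library, with 71.7, 66.8 and 68.9 CPM in the noCRS libraries and 32.8, 41.8, 53.9 and 44.1 CPM in the CRS libraries (log2 -0.68 ± 0.22 SE, adjusted p = 0.197 in edgeR). Antigen-processing and interferon-response genes, which are induced together with Psmb8 and Psmb9, had 2 of 9 fold changes above 0 (49.2% of all tested genes). Their median log2 fold change was -0.38. There were 0 calls by edgeR (2.3%), 1 by DESeq2 (9.14%) and 0 by limma-voom (3.58%). Without adjustment 2 of them were lower (3.91%) and 0 higher (9.67%) at a p below 0.05 by edgeR.

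**Figure D5:**
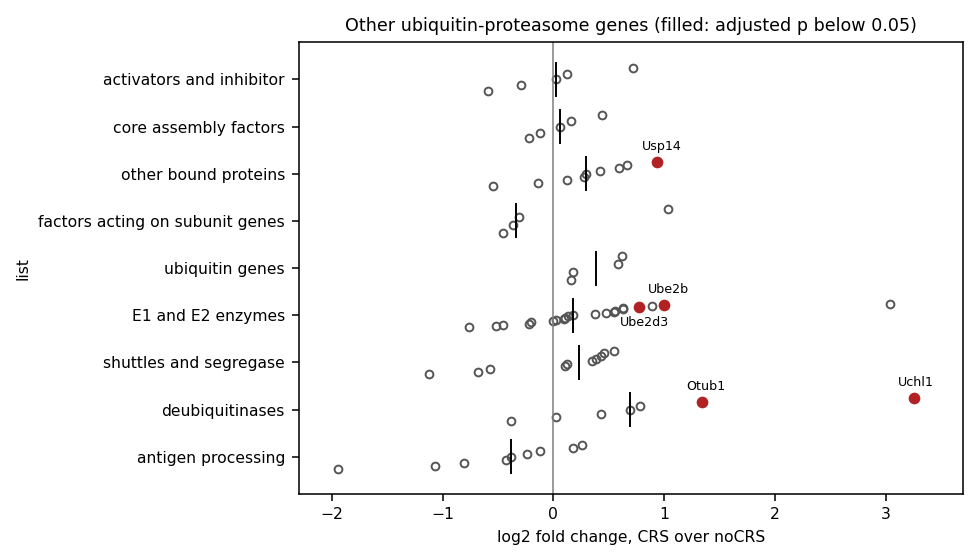
Fold change between CRS and noCRS (horizontal axis, log2) of pathway genes that the symbol rule does not take, 1 row per list. Among them Adrm1 and Sem1 encode subunits. Filled red points passed an edgeR adjusted p of 0.05, open points did not, and the bar is the list's median. The filled points are Usp14, Ube2b, Ube2d3, Otub1 and Uchl1, the last at 3.25.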

How the data were processed

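The authors deposited raw counts per gene as whole numbers in 1 table with exon coordinates and exon length, which was used for lengths and overlaps. GRCm38 is the build, and featureCounts, HISAT2, HISAT, DESeq2 and FastQC are named without versions, per the submitters' processing notes. Column names in the table end as STAR's default output does, so the aligner was not settled. How multiply aligned reads were handled is not stated. Counts of genes with near-identical copies are uncertain for that reason. Per the labels' protocols, libraries were made with a transposase kit.

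Here 17833 of 55367 genes passed edgeR's default filter and were tested (edgeR 4.0.16, R 4.3.3, quasi-likelihood test of CRS over noCRS after TMM scaling, with no covariate and a Benjamini-Hochberg threshold of 0.05). CPM values are TMM-normalised, and ratios by library used log2 CPM with a prior count of 2. Intervals are 95%. Alternatives were DESeq2 1.42.0, limma-voom (limma 3.58.1), 3 scalings, 2 filters, a threshold of 0.10, each library left out and a replicate block. No pair of libraries was a duplicate. The code was tested on simulated data.

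The members and lists were chosen with earlier results of these data known. Values per library were given for the catalytic and inducible subunits, for the genes of smallest and largest p in each role, and for pathway genes past the threshold or of smallest p in their list. Psma1, Psma2, Psma3, Psma4, Psma6, Psmb1, Psmb2, Psmb3, Psmc1, Psmc2, Psmc4, Psmc5, Psmd1, Psmd3, Psmd5, Psmd6, Psmd7, Psmd8, Psmd13, Psmd14, Adrm1, Sem1, Uchl5, Zfand5, Psme1, Psmf1, Nfe2l1, Vcp, Ufd1 and Snap25 were added after their values were seen. A listed factor, Paaf1, was not analysed here, and the values of 1 pathway gene are not reported here. Precision is limited by 7 libraries and by counting error where counts are few.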

Additional observations from a re-analysis of the deposited data

Results flagged for a closer look

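Within the 4 CRS libraries, 5 of 53 values examined had 1 library far from the others by Dixon's 95% criterion, and in each of them it was CRS replicate 2 on the high side. Chance marks about 1 in 20 such groups, and these values are not independent, since they come from the same library. Psma2 in CRS replicate 2 measured 369 CPM, with the other CRS libraries at 232 to 239 CPM. Psma3 was at 356 CPM, with the other CRS libraries at 284 to 295 CPM. Psmd12, a lid subunit, stood at 329.9 CPM, with the other CRS libraries at 218 to 231 CPM. For the lid deubiquitinase Psmd14 the value was 268 CPM, with the other CRS libraries at 199.9 to 209 CPM. The summed level of the regulatory genes was 5965 CPM, with the other CRS libraries at 4579 to 4729.6 CPM.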

How the results depend on the processing

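The number of proteasome genes with a fold change above 0 (33 of 38, against 49.2% of all tested genes) stayed between 30 and 34 under every test, scaling, filter, left-out library and the replicate block, a comparison added after seeing the data. The number passing the test depended on the tool. It was 0 by edgeR under each scaling, filter and left-out library and under the replicate block. DESeq2 called 8 (3 core and 5 regulatory, against 9.14% of genes with an adjusted p). By limma-voom it was 2 (1 core and 1 regulatory, against 3.58% of all tested genes). At an adjusted p below 0.10, edgeR called 3 (1 core and 2 regulatory, against 4% of all tested genes). Over all genes the counts were 410 by edgeR (369 of them higher, and 79.5% of the calls with total-count scaling and 74.9% by DESeq2), 1631 by DESeq2, 639 by limma-voom, 714 at 0.10 and 142 to 352 with a library left out. With total-count scaling the core median was 0.22 and the regulatory median 0.20, and with a library left out they were 0.26 to 0.43 and 0.26 to 0.43. Of the proteasome genes, 10 were higher at an unadjusted p below 0.05 with total-count scaling (7.54% of all tested genes). With a library left out 10 to 17 were, with 10 without noCRS replicate 3. Without noCRS replicate 1 or 2 the counts were 13 (9.57% of all tested genes) and 12 (8.64%). The number without overlap was 16 with RLE scaling (9.52% of all tested genes), 15 with upper-quartile scaling (9.21%), 13 with total-count scaling (7.62%) and 19 to 25 with a library left out (12% to 13.8%). Among single genes, the log2 fold changes of Psma7 (-0.038) and Psmd11 (-0.082) were below 0 with total-count scaling, which moved the median of all genes to -0.17. With a library left out, values crossed 0 for Psma7 (-0.072 to 0.23), Psmd11 (-0.074 to 0.26), Psmd9 (-0.34 to 0.13), Psmb8 (-1.72 to 0.23) and Psmc3ip (-0.14 to 0.87). The cause was not tested. The replicate numbers in the titles are not said to pair libraries, and the deviations of same-numbered libraries from their group means correlated at 0.015, -0.00319 and 0.023, so the numbers were not taken as pairs. With the replicate number as a block, 12 genes over the whole table passed, which spends residual degrees of freedom, and the core and regulatory medians were 0.38 and 0.41. The block ended the edgeR calls of Usp14, Ube2b, Ube2d3 and Otub1 (adjusted p = 0.235, 0.156, 0.238 and 0.187). Depth limits what can be said of Psma8, which had 0 counts.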
